A study of Mus musculus with 55 samples.

Results

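The strain difference in the effect of the Gls2 hairpin is the response of OTC livers to the hairpin less the response of WT livers, each taken against the control hairpin of the same strain. It rests on 38 of the 55 liver libraries of the series, which are the libraries of 4 groups: 10 WT control, 10 WT sh-Gls2, 8 OTC control and 10 OTC sh-Gls2 mice. The WT strain is B6EiC3SnF1/J, a hybrid, and the OTC strain is B6EiC3Sn a/A-Otcspf-ash/J, with the spf-ash allele of Otc. Otc lies on the X chromosome and encodes ornithine transcarbamylase, which makes citrulline in the urea cycle. All animals were males that received an adeno-associated virus into a vein at 4 months of age, were moved to a 40% protein diet at week 2, and their livers were taken at week 5. The virus encoded a scrambled hairpin RNA (control) or a hairpin RNA against Gls2 (sh-Gls2), and the promoter that drives it is not named in the labels. The groups share the virus and the diet, and no group went without either. The strains differ in genetic background as well as in Otc, so the background and the Otc variant cannot be told apart in any strain difference. The design names 12 to 13 animals a group, the sample labels give an age of 5 months, and no label names a batch.

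Gls2 encodes the glutaminase of the liver, which splits glutamine into glutamate and ammonia in the mitochondria of hepatocytes around the portal vein. The ammonia enters the urea cycle there, and hepatocytes around the central vein capture what escapes by making glutamine. Mice with the spf-ash variant splice Otc poorly, keep a small part of its enzyme activity and accumulate ammonia on a protein load. The comparison asks which liver transcripts respond to the Gls2 hairpin to a different extent in the strain with this urea cycle defect. Effects of less Gls2 and any other effects of the hairpin RNA cannot be told apart in these groups.

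Both strains responded to sh-Gls2 with a large share of their genes and mostly in the same direction, and few genes had a response that differed between strains. Of 13311 genes tested, 45 (0.338%) had a strain difference at an adjusted p below 0.05, with 16 (0.12%) higher and 29 (0.218%) lower in OTC than in WT (edgeR quasi-likelihood test, Benjamini-Hochberg adjustment over all tested genes). Such a gene is called below, a difference is on the log2 scale, and a positive value means a higher response in OTC. Counts of called genes in the gene lists below stand beside these shares, and 0 called in a short list is near them. Within strains, sh-Gls2 changed 4638 genes (34.8%) in WT and 5690 (42.7%) in OTC against the strain's own control. In WT 2344 genes (17.6%) rose and 2294 (17.2%) fell, and in OTC 2685 (20.2%) rose and 3005 (22.6%) fell. Of the 3416 genes called in both strains, 3411 moved the same way. Across the 13311 genes the responses, which share no library, had a Pearson r of 0.78 and a Spearman rho of 0.766, given as a description because genes are not independent replicates. The median size of the response over all tested genes was 0.185 in WT and 0.228 in OTC. At an unadjusted p below 0.05, 559 genes (4.2%) had a higher and 937 (7.04%) a lower response in OTC. That split turned on log2(TPM + 1), with 651 higher and 514 lower, so the surplus of lower responses at this threshold is not independent of the scale.

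**Figure D1:**
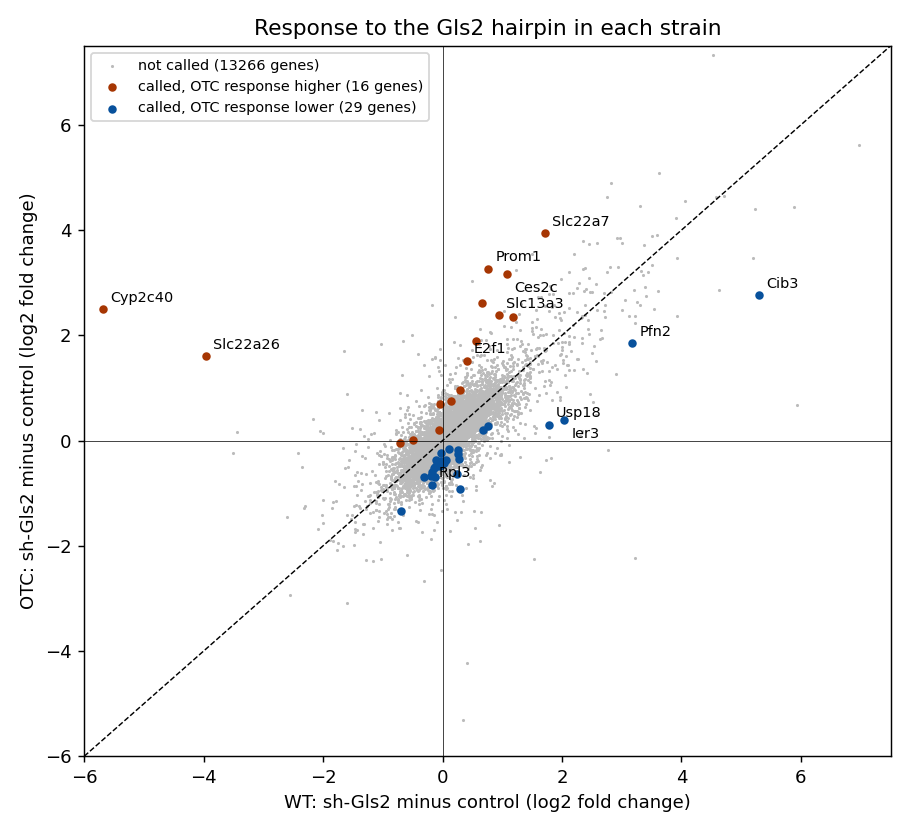
Response to sh-Gls2 in WT (x axis) and OTC (y axis) as log2 fold changes against the strain's control, 1 point per tested gene, with the dashed line marking equal responses. The 16 genes called with a higher response in OTC lie above the line and the 29 called with a lower response lie below it, while the other genes spread around it (Pearson r 0.78).

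Levels below are CPM, the counts of a library scaled by its normalized total. Gls2 itself fell in both strains, and the strain difference in its fall was close to 0. WT control libraries held 339 to 578 CPM (median 438) of Gls2, against 159 to 255 CPM (median 198) under the Gls2 hairpin. OTC livers held 332 to 554 CPM (median 449) with the control virus and 159 to 236 CPM (median 201) with sh-Gls2. Every hairpin library lay below every control library of its strain, and the groups overlapped between strains. The fold changes left 46.3% of the control level in WT and 45.1% in OTC, and the strain difference was −0.04 ± 0.14 (SE, edgeR adjusted p = 0.957), with a 95% interval of −0.32 to 0.25. Otc was at 43 to 79.1 CPM (median 61.5) in OTC control against 473 to 596 CPM (median 520.1) in WT control, with no overlap, the direction of the strain labels. Its strain difference of 0.27 ± 0.11 (SE, edgeR adjusted p = 0.356) was not called. Glud1, the glutamate dehydrogenase that releases ammonia from glutamate, had a difference of 0.05 ± 0.17 (SE, edgeR adjusted p = 0.953). Of 23 tested genes of glutamine and ammonia handling, 1 was called (Rhbg, described below), against 0.338% of all tested genes. The list's median difference was −0.05 against −0.01 over all tested genes and turned to 0.04 without OTC control mice 03 and 67. Got1, the cytosolic aspartate aminotransferase, had a response of −0.15 ± 0.31 in WT (edgeR adjusted p = 0.738), against −1.42 ± 0.33 in OTC (adjusted p = 0.000429), and its difference of −1.26 ± 0.45 (SE, edgeR adjusted p = 0.244) was not called. Without OTC control mouse 03 the Got1 difference was −0.70 (adjusted p = 0.59), and without mice 03 and 67 −0.10 (adjusted p = 0.959).

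Among the 16 genes with the higher response in OTC, 7 rose in both strains but further in OTC, 5 rose in OTC alone by the test, and 4 fell in WT with no call in OTC. Several encode liver enzymes and transporters: the carboxylesterase Ces2c, the cytochrome P450 Cyp2a12, the glucuronosyltransferase Ugt2b37, and the carriers Slc13a3, Slc22a7 and Rhbg. These started lower in OTC control than in WT control and reached or neared the WT level under sh-Gls2, apart from Ugt2b37, whose control gap was not called, and Slc22a7 and Rhbg, which stayed lower in OTC under the hairpin. Since the control libraries enter both the starting gap and the response, the gap and the response are not independent of each other.

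Ces2c, a carboxylesterase of the endoplasmic reticulum that cleaves esters and amides (GRCm38 chromosome 8, 104847068 to 104854483), had an adjusted p that no other tested gene went below. Its WT levels spanned 29 to 78.3 CPM (median 43.8) with the control virus, against 64.7 to 147 CPM (median 87.3) with sh-Gls2. Its OTC levels spanned 1.08 to 16.7 CPM (median 7.04) and 32.3 to 109 CPM (median 61.2), in the same order. The OTC groups did not overlap, and the lowest group of all was OTC control. Ces2c rose in both strains (log2 fold change 1.08 ± 0.24 (SE) in WT and 3.17 ± 0.28 in OTC), and the difference was 2.09 ± 0.36 (SE, edgeR adjusted p = 0.00374), an OTC response 4.27 times that of WT. The gap between strains was −2.61 under control (edgeR adjusted p = 4.54e-10) and −0.51 under sh-Gls2 (adjusted p = 0.0895). Ces2c lies in a cluster of similar carboxylesterase genes, whose reads the counting may share.

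Cyp2a12, a cytochrome P450 that hydroxylates steroids and bile acids (chromosome 7, 27029081 to 27037375), was far more abundant. Cyp2a12 lay at 404 to 551 CPM (median 481) in the WT controls, and sh-Gls2 libraries of that strain lay at 492 to 718 CPM (median 592). Among OTC mice the controls lay at 272 to 482 CPM (median 344), and the sh-Gls2 libraries at 559 to 856 CPM (median 674). All 10 OTC sh-Gls2 libraries lay above all 8 OTC control libraries, while the WT groups overlapped. The response was 0.30 ± 0.08 in WT (edgeR adjusted p = 0.00455), against 0.96 ± 0.09 in OTC (adjusted p = 2.95e-12), and the difference was 0.66 ± 0.12 (SE, edgeR adjusted p = 0.00508).

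Slc13a3, a sodium-coupled carrier of succinate and other dicarboxylates (chromosome 2, 165405028 to 165473230), is also 1 of the 24 tested genes of hepatocytes around the central vein. In WT mice Slc13a3 measured 9.2 to 17.3 CPM (median 14.1) under control, next to 16.2 to 35.7 CPM (median 26.2) under sh-Gls2. The OTC controls measured 1.89 to 12.1 CPM (median 5.24), next to 22 to 33.5 CPM (median 31.2) for OTC sh-Gls2. OTC control was the low group and both hairpin groups overlapped at the top. The response was 0.94 ± 0.18 in WT (edgeR adjusted p = 4.96e-05), against 2.38 ± 0.21 in OTC (adjusted p = 2.93e-13), with a difference of 1.44 ± 0.27 (SE, edgeR adjusted p = 0.00508).

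E2f1, a transcription factor of entry into DNA synthesis (chromosome 2, 154559407 to 154569892), was low everywhere. E2f1 ranged from 1.93 to 3.69 CPM (median 3.06) in WT control libraries, against 2.66 to 4.98 CPM (median 3.83) in those of WT sh-Gls2. In OTC livers it ranged from 0.324 to 1.77 CPM (median 1.19) under control, against 2.02 to 4.51 CPM (median 3.08) under sh-Gls2. Every OTC control library was below every other library of the 4 groups. E2f1 rose by 0.41 ± 0.16 in WT (edgeR adjusted p = 0.0393), against 1.52 ± 0.18 in OTC (adjusted p = 2.4e-09), a difference of 1.11 ± 0.24 (SE, edgeR adjusted p = 0.0234). Its call was lost in 4 of 12 other settings (adjusted p from 0.00127 to 0.077). Of 36 tested genes of the cell cycle and mitosis, 31 rose in WT and 30 in OTC (17.6% and 20.2% of all tested genes). None of the 36 had a called strain difference. The median difference of 0.37 turned to −0.13 on log2(TPM + 1), where 11 were tested.

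**Figure D2:**
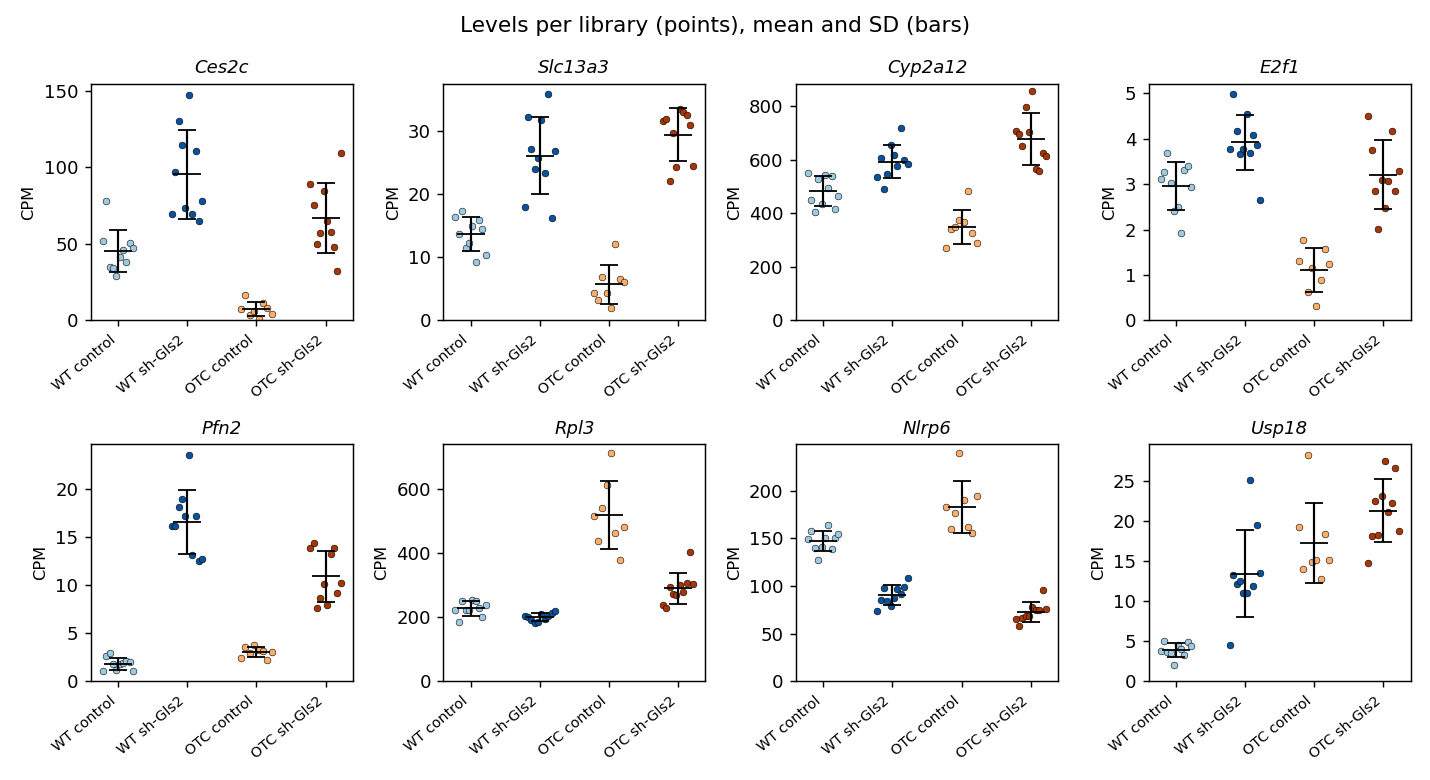
CPM (y axis from 0) of 8 genes in each library (points) of the 4 groups, with the mean and SD as bars. OTC control is the lowest group for Ces2c, Slc13a3, Cyp2a12 and E2f1 and the highest for Rpl3 and Nlrp6, whereas Pfn2 rose most in WT and Usp18 started high in OTC.

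Carriers of ammonium and organic anions followed the same order. Rhbg, an ammonium channel of hepatocytes around the central vein, stood at 4.2 to 10.7 CPM (median 5.26) in WT control and 0.892 to 2.14 CPM (median 1.2) in OTC control. Under sh-Gls2 it reached 9.59 to 16.5 CPM (median 14.3) in WT and 3.8 to 11 CPM (median 6.62) in OTC. No OTC control library reached the lowest WT control library. Its responses were 1.18 in WT and 2.34 in OTC, a difference of 1.17 ± 0.26 (SE, edgeR adjusted p = 0.0249), and the call was lost without OTC control mouse 35 (difference 1.14, adjusted p = 0.0524) or OTC control mouse 03 (difference 1.14, adjusted p = 0.0566), against 0.00708 to 0.0566 over all 38 omissions. Slc22a7, a carrier that takes organic anions and nucleotides into hepatocytes, rose from 0.108 to 2.14 CPM (median 0.788) to 5.39 to 26.7 CPM (median 15.9) in OTC and from 5.77 to 28.9 CPM (median 16.7) to 27.2 to 110.4 CPM (median 50.1) in WT. Its OTC libraries lay below the WT libraries with the same hairpin in every case. The difference was 2.23 ± 0.53 (SE, edgeR adjusted p = 0.0408), and the call was lost in 21 of 38 omissions of a single library (adjusted p from 0.0257 to 0.0942). The Slc22a7 call was also lost in 8 of 12 other settings (adjusted p from 0.016 to 0.317), and that of Rhbg in 5 of 12 other settings (adjusted p from 0.00359 to 0.223). On log2(TPM + 1) their differences were 1.21 and 0.63.

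Prom1, a membrane protein used as a marker of liver progenitor and bile duct cells, showed a different order. WT control libraries held 0.2 to 5.1 CPM (median 0.722) of Prom1, against 0.612 to 5.6 CPM (median 1.55) under the Gls2 hairpin. OTC livers held 0.59 to 2.02 CPM (median 0.92) with the control virus and 1.72 to 17.1 CPM (median 12.7) with sh-Gls2. The gap between strains was not called under control (−0.07, edgeR adjusted p = 0.918) and was called under sh-Gls2 (2.44, adjusted p = 1.57e-06). The difference was 2.51 ± 0.56 (SE, edgeR adjusted p = 0.0252), and the call was lost without WT control mouse 13 (difference 1.84, adjusted p = 0.102), OTC control mouse 35 (difference 2.48, adjusted p = 0.0524) or OTC control mouse 03 (difference 2.45, adjusted p = 0.058), against 0.00745 to 0.102 over all 38 omissions. It was also lost in 5 of 12 other settings (adjusted p from 0.00359 to 0.21), and the difference was 1.497 on log2(TPM + 1). No gene of the bile duct marker list was called (0 of 14), and the list had a median response of 0.51 in WT and 0.48 in OTC. In whole liver, more cells of a type and more RNA per cell cannot be told apart.

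Other genes that rose more in OTC were S100a10, the partner of annexin A2 (difference 1.34 ± 0.30 (SE, edgeR adjusted p = 0.0249)), and Ugt2b37 (1.94 ± 0.44 (SE, edgeR adjusted p = 0.0252)). S100a10 stood at 6.21 to 32.4 CPM (median 16.1) in OTC controls, against 40.2 to 85.9 CPM (median 64.2) in OTC sh-Gls2, with no overlap, and its call was lost without OTC control mouse 35 (difference 1.25, adjusted p = 0.0537) or OTC control mouse 03 (difference 1.21, adjusted p = 0.058), against 0.00477 to 0.058 over all 38 omissions. For Ugt2b37 the call was lost without WT control mouse 07 (difference 1.63, adjusted p = 0.0555), OTC control mouse 35 (difference 1.94, adjusted p = 0.0524), OTC control mouse 03 (difference 1.81, adjusted p = 0.0614) or OTC sh-Gls2 mouse 49 (difference 1.68, adjusted p = 0.0629), against 0.012 to 0.0629 over all 38 omissions. Cd1d1, which presents lipid antigens to natural killer T cells, had a difference of 0.62 ± 0.14 (SE, edgeR adjusted p = 0.0332), and all 10 OTC sh-Gls2 libraries lay above the OTC controls. That call did not hold without WT sh-Gls2 mouse 79 (difference 0.60, adjusted p = 0.0502), OTC control mouse 67 (difference 0.59, adjusted p = 0.0558), OTC control mouse 35 (difference 0.62, adjusted p = 0.0537) or OTC sh-Gls2 mouse 74 (difference 0.60, adjusted p = 0.0543), against 0.0183 to 0.0558 over all 38 omissions. Rnf44, a RING finger protein, had a small difference of 0.25 ± 0.06 (SE, edgeR adjusted p = 0.0252), lost without OTC control mouse 35 (difference 0.25, adjusted p = 0.0524), OTC control mouse 03 (difference 0.24, adjusted p = 0.0583) or OTC sh-Gls2 mouse 74 (difference 0.24, adjusted p = 0.0514), against 0.00639 to 0.0583 over all 38 omissions. Gda, which converts guanine to xanthine and ammonia, fell in WT with no overlap, from 39.4 to 54.3 CPM (median 46.2) to 20.5 to 33.9 CPM (median 27.8). In OTC it stood at 13.5 to 38.9 CPM (median 24.1) and 20.9 to 29.9 CPM (median 24). Its responses were −0.71 ± 0.11 in WT (edgeR adjusted p = 5.74e-07), against −0.05 ± 0.11 in OTC (adjusted p = 0.751), a difference of 0.66 ± 0.16 (SE, edgeR adjusted p = 0.0408), lost in 17 of 38 omissions (adjusted p from 0.00586 to 0.0753). Il13ra1, a subunit of the interleukin 13 receptor, fell in WT and was not called in OTC (−0.49 ± 0.08 in WT (edgeR adjusted p = 6.86e-06), against 0.01 ± 0.09 in OTC (adjusted p = 0.935)), and its difference of 0.50 ± 0.12 (SE, edgeR adjusted p = 0.0483) was lost in 23 of 38 omissions (adjusted p from 0.0295 to 0.0937). The uncharacterized gene 2210408I21Rik had a difference of 0.73 ± 0.18 (SE, edgeR adjusted p = 0.0463), lost in 23 of 38 omissions (adjusted p from 0.0287 to 0.0883).

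The numerically greatest difference among the called genes belonged to Cyp2c40, a cytochrome P450 of arachidonic acid that female livers express more, and it rested on 1 library. WT control mouse 13 held 182 CPM, and the next highest WT control library held 0.849. The other groups reached at most 0.995 CPM in WT sh-Gls2, 2.26 among OTC controls and 11.7 in OTC sh-Gls2. The difference of 8.19 ± 1.70 (SE, edgeR adjusted p = 0.0148) became 2.52 (adjusted p = 0.437) without that mouse. Slc22a26, another gene higher in females, was at 58 CPM in the same mouse, and its difference of 5.56 ± 1.37 (SE, edgeR adjusted p = 0.0492) became 2.52 (adjusted p = 0.39) without it. Both genes have close relatives, so their reads may be shared, as may those of Ugt2b37. Slc22a26 is named because of this library, after its values were seen.

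Among the 29 genes with the lower response in OTC, 15 fell in OTC with no call in WT, 5 fell in both strains, 3 rose in WT and fell in OTC, 2 rose in WT alone by the test, and 4 rose in both but less in OTC. Protein synthesis was the role of several: Rpl3, Rpl10 and Rpl11 of the large ribosomal subunit, the elongation factor subunit Eef1d and Btf3, a subunit of the complex that binds nascent polypeptides. OTC control mouse 03 was the highest OTC control library for 19 of the 29 genes, and the lowest for 10 of the 16 genes with the higher response. The same counts over all tested genes were not made, and mouse 03 was among the libraries that gave these calls. Without mouse 03, 11 genes were called lower and 6 higher.

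Pfn2, a profilin that binds actin (chromosome 3, 57841895 to 57848079), rose in both strains and less in OTC. Its WT levels spanned 1.01 to 2.88 CPM (median 1.86) with the control virus, against 12.5 to 23.5 CPM (median 16.7) with sh-Gls2. Its OTC levels spanned 2.25 to 3.72 CPM (median 3.1) and 7.58 to 14.4 CPM (median 10.2), in the same order. In both strains the hairpin libraries lay wholly above the controls, and the WT hairpin group reached the highest levels. The response was 3.17 ± 0.17 in WT (edgeR adjusted p = 1.84e-21), against 1.85 ± 0.17 in OTC (adjusted p = 1.33e-12), and the difference was −1.32 ± 0.23 (SE, edgeR adjusted p = 0.00379). Gpi1, the isomerase of glucose 6-phosphate in glycolysis (chromosome 7, 34201330 to 34230336), also rose in both strains. Gpi1 lay at 89.7 to 111 CPM (median 98.5) in the WT controls, and sh-Gls2 libraries of that strain lay at 147 to 181 CPM (median 159). Among OTC mice the controls lay at 126 to 207 CPM (median 148), and the sh-Gls2 libraries at 163 to 198 CPM (median 177). WT control was the low group, and the remaining groups overlapped. Its response was 0.68 ± 0.06 in WT (edgeR adjusted p = 1.88e-12), against 0.21 ± 0.07 in OTC (adjusted p = 0.0111), a difference of −0.47 ± 0.09 (SE, edgeR adjusted p = 0.01), lost in 4 of 12 other settings (adjusted p from 0.00127 to 0.0628).

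Cib3, a calcium-binding protein of the calcium and integrin-binding family, was among the 5 genes raised most over both strains. In WT mice Cib3 measured 0 to 2.7 CPM (median 0.872) under control, next to 10.1 to 49.6 CPM (median 39.1) under sh-Gls2. The OTC controls measured 2.22 to 21.2 CPM (median 5.2), next to 28.2 to 86 CPM (median 47) for OTC sh-Gls2. The hairpin groups overlapped between strains, and the controls differed in median. Its response was 5.29 ± 0.44 in WT (edgeR adjusted p = 2.2e-14), against 2.76 ± 0.39 in OTC (adjusted p = 8.64e-08), and the difference was −2.53 ± 0.56 (SE, edgeR adjusted p = 0.0249), lost without OTC control mouse 72 (difference −2.03, adjusted p = 0.0566), against 0.00984 to 0.0566 over all 38 omissions. The other 4 of these 5, Lrtm2, Pls1, Ttc39aos1 and Ly6d, had responses of 6.96, 5.23, 4.06 and 2.82 in WT and 5.62, 4.40, 4.56 and 4.89 in OTC. None of the 4 had a called strain difference (edgeR adjusted p from 0.366 to 0.729). Vldlr, Hnf4aos, Raet1a and Fras1, among the genes lowered most, had responses between −2.09 and −1.46 in WT and between −2.08 and −1.42 in OTC, again with no called difference (adjusted p from 0.592 to 0.932). Hnf4aos is antisense to Hnf4a, and how strand was counted is not given in the sources used here.

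Nlrp6, a sensor protein that can assemble inflammasomes (chromosome 7, 140920902 to 140929192), fell in both strains and further in OTC. Nlrp6 ranged from 127 to 165 CPM (median 150.2) in WT control libraries, against 73.8 to 108 CPM (median 89.98) in those of WT sh-Gls2. In OTC livers it ranged from 156 to 239.9 CPM (median 179.9) under control, against 57.9 to 96.3 CPM (median 71.3) under sh-Gls2. Within each strain the hairpin and control libraries did not overlap. In median, OTC had the higher control level and the lower hairpin level, with overlap between strains. Its response was −0.70 ± 0.08 in WT (edgeR adjusted p = 6.42e-10), against −1.34 ± 0.09 in OTC (adjusted p = 5.45e-18), with a difference of −0.63 ± 0.12 (SE, edgeR adjusted p = 0.00508). Zcchc7, a subunit of a nuclear RNA surveillance complex (chromosome 4, 44755877 to 44932215), had no called gap between strains under control (0.13, edgeR adjusted p = 0.228). WT control libraries held 10.8 to 15.6 CPM (median 12.3) of Zcchc7, against 9.52 to 13.8 CPM (median 11.7) under the Gls2 hairpin. OTC livers held 10.3 to 18.4 CPM (median 13.7) with the control virus and 7.1 to 9.55 CPM (median 8.58) with sh-Gls2. The OTC hairpin group lay wholly below the OTC controls, and the WT groups overlapped. The response was −0.12 ± 0.08 in WT (edgeR adjusted p = 0.222), against −0.70 ± 0.08 in OTC (adjusted p = 1.64e-09), and the difference was −0.57 ± 0.11 (SE, edgeR adjusted p = 0.0104), lost in 2 of 12 other settings (adjusted p from 0.00211 to 0.0678). Cyp2d22, a cytochrome P450, moved in opposite directions: 0.26 ± 0.08 in WT (edgeR adjusted p = 0.00707), against −0.25 ± 0.08 in OTC (adjusted p = 0.0116). Its groups overlapped within both strains, and the highest library was OTC control mouse 03 at 398 CPM. The difference of −0.51 ± 0.11 (SE, edgeR adjusted p = 0.0249) was lost without OTC control mouse 67 (difference −0.46, adjusted p = 0.0532), OTC control mouse 35 (difference −0.50, adjusted p = 0.0524) or OTC control mouse 03 (difference −0.43, adjusted p = 0.064), against 0.00826 to 0.064 over all 38 omissions.

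The called genes of protein synthesis fell in OTC livers under sh-Gls2 and fell less, or were not called, in WT livers. Rpl3 (chromosome 15, 80077791 to 80091868) had the smallest adjusted p among them. Its WT levels spanned 185 to 255 CPM (median 226) with the control virus, against 183 to 219 CPM (median 202) with sh-Gls2. Its OTC levels spanned 379.7 to 714 CPM (median 499.9) and 229.9 to 404 CPM (median 288), in the same order. OTC libraries lay above WT libraries under either hairpin, and among OTC sh-Gls2 libraries only mouse 04 reached the OTC control range. The response was −0.18 ± 0.08 in WT (edgeR adjusted p = 0.0751), against −0.84 ± 0.09 in OTC (adjusted p = 3.04e-11), and the difference was −0.66 ± 0.12 (SE, edgeR adjusted p = 0.00505). Rpl10 (chromosome X, 74270812 to 74273135) fell in both strains: −0.31 ± 0.06 in WT (edgeR adjusted p = 1.41e-05), against −0.70 ± 0.06 in OTC (adjusted p = 5.03e-14). Rpl10 lay at 296 to 386 CPM (median 356) in the WT controls, and sh-Gls2 libraries of that strain lay at 258 to 311 CPM (median 283). Among OTC mice the controls lay at 404 to 559 CPM (median 452), and the sh-Gls2 libraries at 244 to 313 CPM (median 283). The strains did not overlap under control and overlapped under sh-Gls2. Its difference was −0.39 ± 0.08 (SE, edgeR adjusted p = 0.0148), lost in 2 of 12 other settings (adjusted p from 0.0024 to 0.0678). Rpl11 ranged from 162 to 265 CPM (median 195) in OTC controls and from 136 to 173 CPM (median 145) in OTC sh-Gls2, with medians of 149.8 CPM in WT controls and 149 in WT sh-Gls2. Its difference of −0.46 ± 0.10 (SE, edgeR adjusted p = 0.0234) was lost without OTC control mouse 35 (difference −0.42, adjusted p = 0.0537) or OTC control mouse 03 (difference −0.39, adjusted p = 0.058), against 0.00708 to 0.058 over all 38 omissions.

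Of the 34 cytosolic ribosomal protein genes in the list, which does not hold Rpl10, all were tested, 32 fell in OTC and 4 in WT under sh-Gls2, and none rose (22.6% and 17.2% of all tested genes fell). The strain difference was called for 3, all lower (Rpl3, Rpl11 and Rpl28), against 0.218% of all tested genes called lower. Lower at an unadjusted p below 0.05 were 20, against 7.04% of all tested genes. The list's median response was −0.13 in WT and −0.38 in OTC, its median difference was −0.25, and 31 of 34 differences were below 0. Summed over the list, the libraries held 4451 to 6099 (median 5378) CPM in WT control, 4567 to 5444 (median 4791) in WT sh-Gls2, 5424 to 9701 (median 6391) among OTC controls and 4487 to 6039 (median 4874) in OTC sh-Gls2. The OTC controls stood above the other groups in median, and OTC control mouse 03 was the highest library. Without OTC control mice 03 and 67 the median difference was −0.15, 1 gene was called and 14 were lower at an unadjusted p below 0.05. Ribosomal protein genes have many processed pseudogenes, so reads may have been divided among copies.

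**Figure D3:**
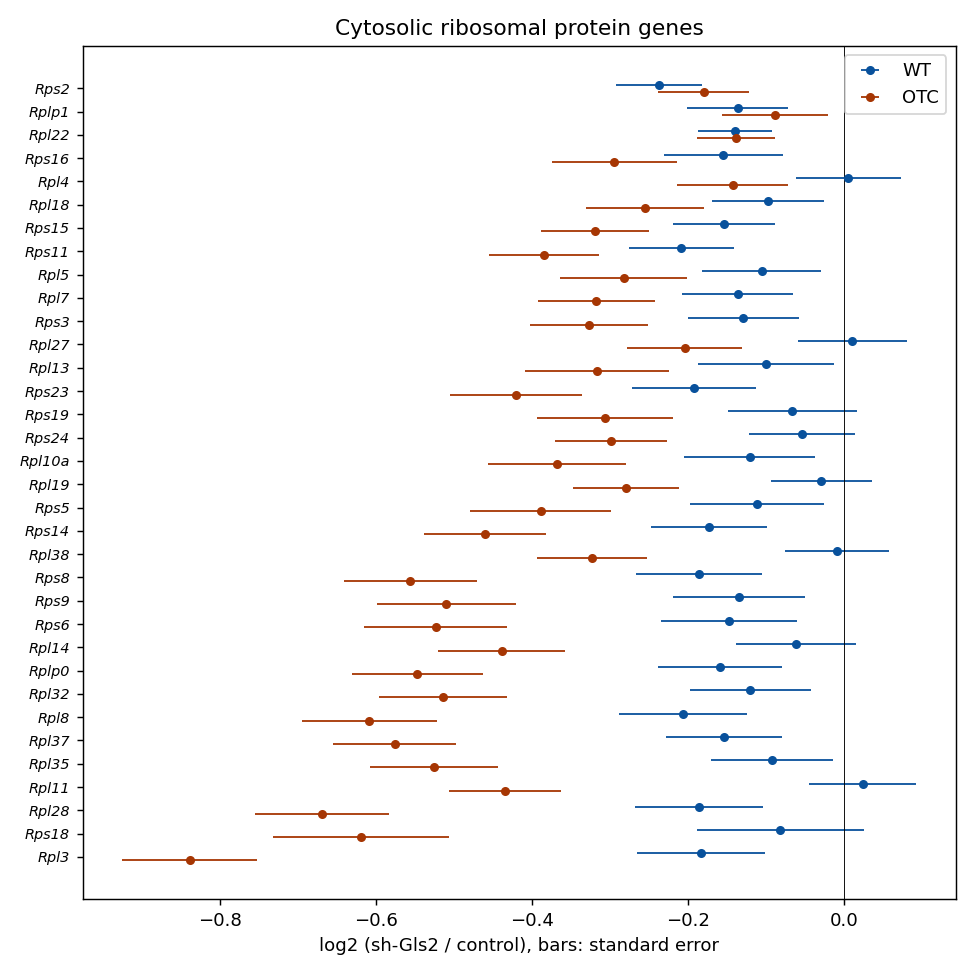
Log2 fold change of sh-Gls2 against control (x axis) for the 34 cytosolic ribosomal protein genes in WT (blue) and OTC (red-brown), with the standard error as bars and genes ordered by the strain difference. In OTC 32 genes fell by the test and in WT 4, and Rpl3 has the lowest OTC response at −0.84.

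Eef1d, a subunit of the factor that reloads the elongation factor with GTP (chromosome 15, 75894205 to 75909556), is another protein of translation. In WT mice Eef1d measured 43.3 to 55.7 CPM (median 52.5) under control, next to 44.3 to 57.2 CPM (median 48.7) under sh-Gls2. The OTC controls measured 55.3 to 81.7 CPM (median 65.6), next to 41.9 to 54.5 CPM (median 45.8) for OTC sh-Gls2. The OTC groups did not overlap and the WT groups did. Its response was −0.04 ± 0.06 in WT (edgeR adjusted p = 0.618), against −0.49 ± 0.07 in OTC (adjusted p = 3.12e-08), and the difference was −0.44 ± 0.09 (SE, edgeR adjusted p = 0.0129), lost in 5 of 12 other settings (adjusted p from 0.00268 to 0.381). Btf3 had a difference of −0.31 ± 0.07 (SE, edgeR adjusted p = 0.0251), with OTC libraries at 105 to 155 CPM (median 119) under control and 83.9 to 104 CPM (median 92.4) under sh-Gls2, and it was no longer called without WT sh-Gls2 mouse 34 (difference −0.29, adjusted p = 0.0515), OTC control mouse 35 (difference −0.30, adjusted p = 0.0524) or OTC control mouse 03 (difference −0.25, adjusted p = 0.0614), against 0.00906 to 0.0614 over all 38 omissions. Fam120b, a coactivator of nuclear receptors, had a difference of −0.37 ± 0.08 (SE, edgeR adjusted p = 0.0234), lost without OTC control mouse 35 (difference −0.34, adjusted p = 0.053), against 0.012 to 0.053 over all 38 omissions. Cutc, a protein of copper homeostasis, had a difference of −0.38 ± 0.08 (SE, edgeR adjusted p = 0.0249), lost without OTC control mouse 67 (difference −0.34, adjusted p = 0.0528) or OTC control mouse 35 (difference −0.35, adjusted p = 0.0537), against 0.00927 to 0.0537 over all 38 omissions. For both, all 10 OTC sh-Gls2 libraries lay below all 8 OTC controls, while the WT groups overlapped. Of 34 nuclear genes of oxidative phosphorylation, 23 fell in OTC and 12 in WT (22.6% and 17.2% of all tested genes fell). At an unadjusted p below 0.05, 4 of the 34 were lower, against 7.04% of all tested genes. None of the 34 had a called strain difference, and the median difference in response was −0.11. Their median level gap, OTC minus WT, was 0.15 under control and 0.05 under sh-Gls2.

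Most interferon-stimulated genes rose in both strains, and fewer rose by the test in OTC, where the control level was higher in median. These genes are switched on when interferon signalling brings transcription factors to a response element in their promoters. Of 48 tested, 44 rose in WT, and 33 rose and 1 fell in OTC (17.6% and 20.2% of all tested genes rose). The median response was 0.97 in WT and 0.68 in OTC, and the median strain difference was −0.27. The median gap between strains was 0.45 under control and 0.27 under sh-Gls2. Usp18 was the 1 gene called for the strain difference, against 0.218% of all tested genes called lower, and 40 of 48 differences were below 0. At an unadjusted p below 0.05, 13 of 48 were lower and 0 higher, against 7.04% and 4.2% of all tested genes. On log2(TPM + 1) these counts at an unadjusted p became 5 lower and 2 higher, and the median difference −0.14. The summed level was 948 to 1408 (median 1109) CPM in WT controls and 1153 to 2623 (median 1887) in WT sh-Gls2. In OTC it was 817 to 1956 (median 1559) under control and 1593 to 2326 (median 2190.1) under sh-Gls2. OTC control mouse 03 had the lowest sum of its group, and the hairpin groups overlapped between strains.

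Usp18, which removes the ubiquitin-like protein ISG15 from its targets and dampens interferon signalling (chromosome 6, 121245906 to 121270917), carried the call. Usp18 ranged from 2.05 to 5.02 CPM (median 3.87) in WT control libraries, against 4.47 to 25.1 CPM (median 12.3) in those of WT sh-Gls2. In OTC livers it ranged from 12.7 to 28.3 CPM (median 15.2) under control, against 14.8 to 27.5 CPM (median 21.7) under sh-Gls2. OTC controls lay wholly above WT controls, and the hairpin groups overlapped. Usp18 rose in WT and was not called in OTC: 1.77 ± 0.22 in WT (edgeR adjusted p = 3.77e-09), against 0.30 ± 0.21 in OTC (adjusted p = 0.249). The difference was −1.47 ± 0.30 (SE, edgeR adjusted p = 0.0129), lost in 4 of 12 other settings (adjusted p from 0.00127 to 0.102). Irf7, a transcription factor that amplifies the interferon response, rose by 2.06 ± 0.20 in WT (edgeR adjusted p = 2.39e-12), against 1.01 ± 0.20 in OTC (adjusted p = 6.1e-05), and its difference of −1.05 ± 0.27 (SE, edgeR adjusted p = 0.0722) missed the threshold. Ier3, an immediate early gene of stress and inflammation, showed the Usp18 pattern at low level, with 0.193 to 1.06 CPM (median 0.442) in WT control and 1.39 to 2.81 CPM (median 2.3) in OTC control. Under sh-Gls2 it stood at 0.689 to 3.86 CPM (median 1.79) in WT and 1.81 to 5.53 CPM (median 2.8) in OTC. Its difference of −1.64 ± 0.37 (SE, edgeR adjusted p = 0.0252) was lost without WT control mouse 19 (difference −1.54, adjusted p = 0.0505), WT sh-Gls2 mouse 01 (difference −1.50, adjusted p = 0.0501), WT sh-Gls2 mouse 14 (difference −1.48, adjusted p = 0.0527), OTC control mouse 35 (difference −1.60, adjusted p = 0.0524) or OTC control mouse 03 (difference −1.58, adjusted p = 0.058), against 0.0113 to 0.058 over all 38 omissions.

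The promoters below show an element known from such genes, for 3 genes with a smaller response in OTC at an unadjusted p below 0.05 (Ifit1, Gbp3 and Isg15) and 1 with like responses (Oas3), picked after their values were seen. The element was searched as GAAANNGAA on both strands in the 250 bases before each gene's start (RefSeq, GRCm38.p6), and overlapping matches were kept. It was found in 18 of 35 interferon-stimulated genes with a promoter in the table (51.4%), in 7.16% of all 27025 promoters and in 6.49% of those of tested genes. Of the 33 called genes with a promoter 1 held it, Slc22a26. Capitals mark the matches, and each run reads 5′ to 3′ on the gene's strand.
Ifit1: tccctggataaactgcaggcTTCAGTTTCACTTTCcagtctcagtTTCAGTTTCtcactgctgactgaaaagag
Gbp3: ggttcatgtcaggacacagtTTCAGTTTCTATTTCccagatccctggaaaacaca
Isg15: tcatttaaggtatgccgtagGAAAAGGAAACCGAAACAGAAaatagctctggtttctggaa
Oas3: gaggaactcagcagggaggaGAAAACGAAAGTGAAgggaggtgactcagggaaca
These lie before the start of Ifit1 at chr19:34640760-34640833 (+ strand), Gbp3 at chr3:142559980-142560034 (+ strand), Isg15 at chr4:156200856-156200916 (- strand) and Oas3 at chr5:120777700-120777754 (- strand). The matches read as TTC runs in Ifit1 and Gbp3 because they sit on the opposite strand. The responses were 1.24 in WT and 0.45 in OTC for Ifit1, 1.79 and 1.06 for Gbp3, 1.38 and 0.63 for Isg15, and 1.15 and 1.22 for Oas3. None of the 4 strain differences was called (edgeR adjusted p = 0.321, 0.418, 0.409 and 0.963). A match describes these letters and does not show binding.

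Fewer antigen presentation genes, too, rose by the test in OTC. All 20 tested genes of MHC class I and II presentation rose in WT and 9 in OTC, with medians of 0.64 and 0.39. Of all tested genes 17.6% rose in WT and 20.2% in OTC. None of the 20 had a called strain difference, and their median difference was −0.31. At an unadjusted p below 0.05, 6 were lower and 0 higher, against 7.04% and 4.2% of all tested genes. For sh-Glud1, with the same controls, the list's median strain difference was −0.32, and the gap between strains under sh-Gls2 minus that under sh-Glud1, which uses no controls, gave 0.11. H2-Eb1, a class II chain, had responses of 1.30 ± 0.27 in WT (edgeR adjusted p = 0.000102), against 0.33 ± 0.28 in OTC (adjusted p = 0.354). H2-D1, a class I chain, had 0.65 ± 0.08 in WT (edgeR adjusted p = 4.21e-09), against 0.36 ± 0.09 in OTC (adjusted p = 0.000538), and neither difference was called (edgeR adjusted p = 0.295 and 0.32). On log2(TPM + 1) 1 gene was lower at an unadjusted p below 0.05. Macrophage and Kupffer cell markers rose in both strains, 18 of 25 in WT and 19 in OTC (17.6% and 20.2% of all tested genes). The markers' median difference of 0.07 turned to −0.05 with voom and quality weights. Their summed level was 263 to 512 (median 308) CPM in WT control, 339 to 560.4 (median 517) in WT sh-Gls2, 243 to 444 (median 339) among OTC controls and 379 to 649 (median 557) in OTC sh-Gls2. The part of immune cells in the interferon and MHC responses was not tested.

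Most cholesterol synthesis genes fell in WT, and most were not called in OTC. The pathway builds cholesterol from acetyl-CoA, and the transcription factor SREBP2 raises its enzymes together when sterols are low. Of 25 tested genes, 19 fell and 0 rose in WT (17.2% and 17.6% of all tested genes). In OTC 4 fell and 1 rose (22.6% and 20.2% of all tested genes). The median response was −0.60 in WT and −0.11 in OTC. No strain difference was called, 9 of 25 were higher and 0 lower at an unadjusted p below 0.05 against 4.2% of all tested genes, and 24 of 25 differences were above 0 with a median of 0.46. The same strain difference for sh-Glud1, which shares the control libraries, had a median of 0.60, and the comparison of the hairpins without controls had −0.19. Hmgcs1, which makes HMG-CoA, had responses of −1.14 ± 0.30 in WT (edgeR adjusted p = 0.00221), against 0.14 ± 0.31 in OTC (adjusted p = 0.746), and Msmo1, a sterol demethylating oxidase, −0.78 ± 0.22 in WT (edgeR adjusted p = 0.00356), against 0.15 ± 0.23 in OTC (adjusted p = 0.626). Their differences were 1.28 ± 0.43, edgeR adjusted p = 0.204, and 0.93 ± 0.31, edgeR adjusted p = 0.201. The summed level was 3347 to 6600 (median 5110.1) CPM in WT control, 2207 to 5235 (median 3515) in WT sh-Gls2, 2016 to 6043 (median 4660.1) among OTC controls and 3077 to 5656 (median 4202) in OTC sh-Gls2. All 4 groups overlapped, and OTC control mouse 03 was the lowest library of the 4 groups. Without OTC control mice 03 and 67, 3 of 25 were higher at an unadjusted p below 0.05 and the median difference was 0.26.

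The Hmgcs1 promoter is shown because it held the 1 match to the sterol regulatory element, searched as TCACNCCAC on both strands in the same 250 bases, among the 17 cholesterol genes with a promoter in the table. The share was 1.04% of all 27025 promoters. Capitals mark the match.
Hmgcs1: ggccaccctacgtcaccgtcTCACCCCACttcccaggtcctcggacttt
It lies before the start of Hmgcs1 at chr13:119690194-119690242 (+ strand), read 5′ to 3′, and no match in the other promoters says only that these letters are not in those windows.

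Genes of the central and portal zones of the liver lobule had median differences of opposite sign, though the portal one turned to 0.01 when OTC control mice 03 and 67 were left out along with WT control mouse 13. Of 24 tested genes of hepatocytes around the central vein, 11 rose in OTC and 4 in WT (20.2% and 17.6% of all tested genes rose). In each strain 1 fell, against 22.6% of all tested genes in OTC and 17.2% in WT. Slc13a3 and Rhbg were called higher, against 0.12% of all tested genes, and the median difference was 0.29. At an unadjusted p below 0.05, 5 were higher and 0 lower, against 4.2% and 7.04% of all tested genes. Under control the OTC median of this list was −0.61 relative to WT, and under sh-Gls2 −0.17. For sh-Glud1, with the same controls, the list's median strain difference was 0.17, and the comparison of the hairpins without controls had 0.07. Of 21 genes typical of the portal zone, 0 were called, and the median difference was −0.17. At an unadjusted p below 0.05, 1 of them was higher and 5 were lower, against 4.2% and 7.04% of all tested genes. The portal list had −0.02 for sh-Glud1 and −0.19 in the comparison without controls. Cyp2f2, a P450 of the portal zone, had responses of −0.01 ± 0.13 in WT (edgeR adjusted p = 0.961), against 0.53 ± 0.14 in OTC (adjusted p = 0.00225), against the direction of the list's median. Among 9 tested urea cycle genes, 7 fell and 1 rose in OTC and 1 fell in WT (22.6%, 20.2% and 17.2% of all tested genes). These 9 had 0 called differences and a median difference of −0.20. Cps1, which makes carbamoyl phosphate from ammonia, had −0.10 ± 0.12 in WT (edgeR adjusted p = 0.549), against −0.53 ± 0.12 in OTC (adjusted p = 0.000493). Arg1, which releases urea from arginine, had −0.20 ± 0.14 in WT (edgeR adjusted p = 0.302), against −0.70 ± 0.15 in OTC (adjusted p = 0.000189). Without OTC control mouse 03 the Arg1 difference went from −0.51 to −0.32. Without OTC control mice 03 and 67 the Cps1 difference went from −0.43 to −0.20, and the median difference of the urea cycle genes turned to 0.02, with 0 of 9 past an unadjusted p of 0.05. Of 54 genes of amino acid catabolism, 20 fell in OTC and 9 in WT, against 22.6% and 17.2% of all tested genes. In each strain 4 rose, against 20.2% and 17.6% of all tested genes, and 0 had a called difference. Tdo2, the first enzyme of tryptophan breakdown, had −0.12 ± 0.15 in WT (edgeR adjusted p = 0.571), against −0.79 ± 0.15 in OTC (adjusted p = 3.99e-05), and Kmo, a later enzyme of that pathway, −0.17 ± 0.09 in WT (edgeR adjusted p = 0.143), against 0.29 ± 0.10 in OTC (adjusted p = 0.0119). Without OTC control mouse 03 the Tdo2 difference went from −0.67 to −0.44.

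**Figure D4:**
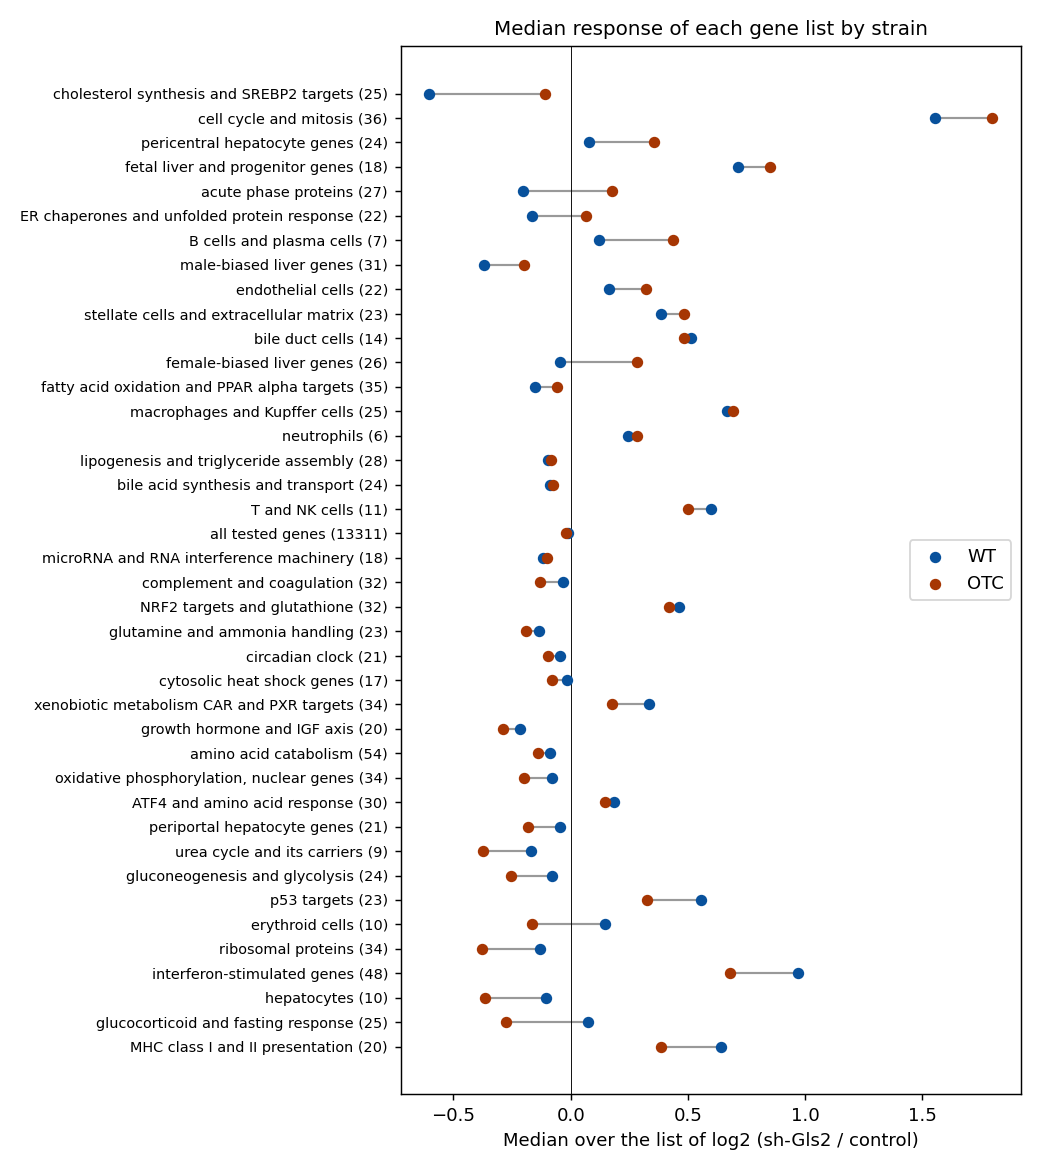
Median log2 fold change of sh-Gls2 against control (x axis) over each gene list in WT (blue) and OTC (red-brown), with the number of tested genes in brackets and lists ordered by the median strain difference. Cholesterol synthesis has the highest and MHC presentation the lowest median difference, at 0.46 and −0.31, and all tested genes sit at −0.01.

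Acute phase proteins, which the liver secretes in inflammation, rose in OTC for 10 of 27 and in WT for 5, and fell for 4 in OTC and 8 in WT. Of all tested genes 20.2% rose in OTC and 17.6% in WT, and 22.6% and 17.2% fell. At an unadjusted p below 0.05, 7 of the 27 were higher and 0 lower, against 4.2% and 7.04% of all tested genes. None was called for the strain difference, and the median difference was 0.22. Without WT control mouse 07 that median was −0.01. For sh-Glud1, with the same controls, the list's median strain difference was 0.30, and the comparison of the hairpins without controls had −0.07. Saa1 and Saa2, serum amyloid A proteins, had responses of −1.03 and −1.65 in WT and 1.83 and 1.70 in OTC, with differences of 2.86 ± 0.76, edgeR adjusted p = 0.0726, and 3.35 ± 0.89, edgeR adjusted p = 0.0738. Without WT control mouse 07 these were 2.16 (adjusted p = 0.178) and 1.95 (adjusted p = 0.271). Their sequences are close, and reads may be shared between them. Markers of hepatocytes (0 of 10 called, median difference −0.29), endothelial cells (0 of 22, 0.15), stellate cells and matrix (0 of 23, 0.10), macrophages (0 of 25), T and NK cells (0 of 11), B cells (0 of 7), neutrophils (0 of 6) and erythroid cells (0 of 10) had no called strain difference, against 0.338% of all tested genes called. In lists this short, 0 called is near that share. Each marker in the table was counted in at least 1 of the 38 libraries, but not every marker was tested. The test covered 6 of 14 listed neutrophil markers, 11 of 24 of T and NK cells and 7 of 13 of B cells. Endothelial markers rose for 16 of 22 in OTC and 6 in WT, and 3 were higher and 0 lower at an unadjusted p below 0.05. Hepatocyte markers fell for 5 of 10 in OTC and 2 in WT, and 1 was higher and 5 were lower at an unadjusted p below 0.05 (7.04% of all tested genes were lower). The part of these cells in the called genes was not tested.

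For the Glud1 hairpin no gene was called in the same test. Its strain difference, which uses the same control libraries, had 0 called genes in edgeR and 417 at an unadjusted p below 0.05 (237 higher and 180 lower). A comparison free of the control libraries sets the gap between strains under sh-Gls2 against the gap under sh-Glud1, and it called 54 genes (0.406%), 14 higher and 40 lower. It shares the sh-Gls2 libraries with the main comparison. For Pfn2 the value was −1.33 ± 0.24 (SE, edgeR adjusted p = 0.00953), beside −1.32 in the main comparison. For Rpl3 it was −0.61 (adjusted p = 0.00953), for Nlrp6 −0.61 (adjusted p = 0.00953) and for Cyp2a12 0.68 (adjusted p = 0.00953). Ces2c had 1.62 (adjusted p = 0.0186) and Usp18 −1.24 (adjusted p = 0.0387). Of the 45 called genes, 17 were called there, which is also 17 of its 54. Slc13a3 was not called there (0.74, adjusted p = 0.2).

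Of the 45 called genes, 12 were called in each of the 38 fits that left out a single library: Ces2c, Cyp2a12, Slc13a3, E2f1, Pfn2, Rpl3, Nlrp6, Gpi1, Zcchc7, Eef1d, Usp18 and Rpl10. The first 3 of these and Pfn2, Rpl3 and Nlrp6 were also called in all 12 other settings. Among the other settings the call was lost in 3 for S100a10, Gda, Rpl11 and Cyp2d22, in 4 for Ugt2b37, Cd1d1, Cutc and 2210408I21Rik, and in 5 for Cib3. It was lost in 6 for Rnf44, Fam120b, Ier3 and Cyp2c40, in 7 for Btf3, in 8 for Il13ra1 and in 10 for Slc22a26, of 12 each or, for 2210408I21Rik, of 10. On log2(TPM + 1) without a filter the differences of Ier3, 2210408I21Rik, Cyp2c40 and Slc22a26 were −0.82, 0.29, 1.61 and 1.47. The number called ranged from 15 without OTC control mouse 35 to 64 without OTC control mouse 72 or OTC sh-Gls2 mouse 04, and a fit of the 4 groups alone called 19. Total counts per library were between 14489866 and 22781052 over the 38 libraries. On simulated counts of this comparison (13230 genes passing the filter), changes were planted only in genes above a minimum mean level. The test recovered 64% of these 1.5-fold changes and 88% of these 2-fold changes. Smaller differences of single genes, and differences of genes with lower counts, may therefore go uncalled at this number of mice.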

How the data were processed

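Poly(A) RNA of whole livers was sequenced with a stranded kit and 12 cycles of PCR, per the labels' protocols. CASAVA 1.8.2, FastQC and the build GRCm38 are named in the submitters' processing notes, and the aligner, the counter and the annotation are not given in the sources used here. The authors deposited whole-number read counts per gene and TPM values for the 55 libraries. 1 OTC control column carries a mouse number that matches no sample label and is called unnumbered.

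Counts were fitted in R 4.3.3 with edgeR 4.0.16 (TMM scaling, genes kept by filterByExpr with minimum counts of 10 and 15 in total, quasi-likelihood test) over all 6 groups of the series, so that 55 libraries share 1 estimate of the spread, with no covariate. Adjusted p-values are Benjamini-Hochberg values over all 13311 tested genes, with a threshold of 0.05. CPM are counts scaled by the TMM-normalized library total. No label says that mice of a group came from separate litters or cages, and p-values measure the spread between these samples. No pair of libraries within a group agreed within sampling noise. Total counts per library were 14489866 to 22781052, TMM factors 0.924 to 1.1. On simulated counts 2.56% of calls were of unchanged genes. Those counts had 100 genes changed at each fold, 1 spread per gene and no outlying mouse built in. The changed genes were drawn only from those above a minimum mean level, and the adjusted p depends on how many genes change. The shares of changes recovered and of unchanged genes called may therefore differ for these libraries.

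Genes were named by rule: Otc, Gls2 and Glud1, in each direction the 15 called genes of lowest adjusted p, the 5 highest and 5 lowest mean responses of genes called in both strains (mean log2 CPM of at least 1), and the 2 genes with the smallest unadjusted p in a described list. Predicted gene names were left out unless called. 1 gene that the rule names is not reported here. Members and lists were chosen with earlier results of these data known. Alternatives were DESeq2 1.42.0 (size factors and Wald test), other filters, the 4 groups alone, a robust prior, limma 3.58.1 on log2(TPM + 1), log2(TPM + 0.1) and voom with quality weights, and leaving out libraries. Promoters are RefSeq sequences of GRCm38.p6, and 33 of the 45 called genes had one.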

Additional observations from a re-analysis of the deposited data

Results flagged for a closer look

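The response to sh-Gls2 differed between strains for 45 genes by the interaction test in edgeR. For 3 of them the response was called in opposite directions, with differences of −0.51 for Cyp2d22, −0.44 for Nt5c and −0.64 for Endog, rising in WT and falling in OTC.

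In 19 of 132 groups of values (33 genes in 4 groups each), 1 library stood far from the rest of its group by Dixon's criterion. Chance gives about 1 in 20 for normally distributed values. CPM were used without a log scale, and most of the 33 genes were picked as called in these same libraries, so that rate may not hold here. In WT control the flagged libraries were mouse 19 for Ces2c (78.3 CPM), mouse 77 for Rhbg (10.7), and mouse 13 for Cyp2c40 (182) and Prom1 (5.1). WT control mouse 07 stood high for Ugt2b37 (7.01) and Il13ra1 (76.5) and low for Cutc (7.39). In WT sh-Gls2 they were mouse 79 for Prom1 (5.6) and mouse 01 for Gpi1 (181). In OTC control they were mouse 67 for Cyp2c40 (2.26) and Usp18 (28.3), mouse 35 for Nlrp6 (239.9) and mouse 72 for Cib3 (21.2). In OTC sh-Gls2, mouse 04 stood high for Rpl3 (404), Nlrp6 (96.3) and Btf3 (104), mouse 73 for Cyp2c40 (11.7), mouse 49 for Ugt2b37 (22.1) and mouse 60 for Ier3 (5.53). All values are CPM.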

How the results depend on the processing

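The 45 called genes kept the sign of their difference in each alternative that tested them, and their number moved. Against 16 higher and 29 lower genes, the counts were 10 and 14 with no filter on low counts, 7 and 12 with the 4 groups alone, and 32 and 59 by the DESeq2 Wald test, which called 44 of the 45. They were 8 and 13 on log2(TPM + 1), 9 and 14 on log2(TPM + 0.1), 13 and 15 on log2(TPM + 1) without a filter, and 16 and 53 with voom and quality weights. Without OTC control mice 03 and 67 they were 5 and 5, and 5 and 7 with WT control mouse 13 also left out. Leaving out 1 library at a time gave 5 to 20 higher and 10 to 46 lower genes, with the fewest without OTC control mouse 35. The cause of these moves was not tested. Fits that leave libraries out have fewer samples, and some of them called more than 45 genes. Of the lists described, the median differences of the urea cycle, portal zone, glutamine handling, acute phase, cell cycle and NRF2 genes and of the marker lists of bile duct, macrophages, neutrophils, B cells, T and NK cells and erythroid cells changed sign under at least 1 setting. With 8 to 10 libraries a group, 64% of 1.5-fold differences, planted in genes above a minimum mean level, were recovered on simulated counts. No paired analysis was possible because every mouse number occurs once and the groups share none.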

Other observations

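Besides Slc22a26, 14 called genes lie outside the 15 of lowest adjusted p in their direction and are given here, after their values were seen. Aldoa, the aldolase of glycolysis, rose in both strains (0.77 in WT and 0.27 in OTC) like Gpi1, with a difference of −0.50 ± 0.11, edgeR adjusted p = 0.0252. The list of 24 genes of gluconeogenesis and glycolysis had 0 called differences and a median difference of −0.21. At an unadjusted p below 0.05, 2 of the 24 were lower, against 7.04% of all tested genes. Dhodh, the mitochondrial enzyme of pyrimidine synthesis, had responses of −0.18 in WT and −0.61 in OTC (−0.43 ± 0.10, edgeR adjusted p = 0.0442), and the nucleotidase Nt5c 0.26 in WT and −0.18 in OTC (−0.44 ± 0.10, edgeR adjusted p = 0.0334). The nuclease Endog, of mitochondria, had 0.28 in WT and −0.35 in OTC (−0.64 ± 0.15, edgeR adjusted p = 0.0408), and Mrpl23, a mitochondrial ribosomal protein, 0.05 in WT and −0.37 in OTC (−0.42 ± 0.10, edgeR adjusted p = 0.0408). Atp5g2, a subunit of ATP synthase, had −0.13 in WT and −0.49 in OTC (−0.36 ± 0.08, edgeR adjusted p = 0.0334).

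Hspa8, the constitutive chaperone of the HSP70 family, had responses of 0.24 in WT and −0.63 in OTC (−0.87 ± 0.21, edgeR adjusted p = 0.0418), and its 16 tested companions in the cytosolic heat shock list had 0 called differences. Rpl24, a ribosomal protein outside the list of 34, fell in OTC (−0.03 in WT and −0.46 in OTC, −0.42 ± 0.10, edgeR adjusted p = 0.0408), as did Rpl28 (−0.19 in WT and −0.67 in OTC, −0.48 ± 0.12, edgeR adjusted p = 0.0483). Sept6, a septin of the cytoskeleton, had 0.29 in WT and −0.93 in OTC (−1.21 ± 0.29, edgeR adjusted p = 0.0408). Clta, a clathrin light chain, Sh2b1, an adaptor of receptor signalling, Ppil2, a cyclophilin of the spliceosome, and Ccar1, a regulator of transcription, had differences of −0.27, −0.26, −0.21 and −0.38. A call was lost in 5 of 38 omissions of a single library for Aldoa, 10 for Sh2b1, 14 for Atp5g2, 15 for Nt5c, 19 for Clta, 19 for Mrpl23, 21 for Rpl24, 22 for Sept6, 23 for Endog, 23 for Ppil2, 26 for Dhodh, 26 for Hspa8, 31 for Rpl28 and 31 for Ccar1. In the other settings, 12 for each but 10 for Sept6, between 4 and 9 lost the call of each of the 14. The Sept6 difference was −0.60 on log2(TPM + 1) without a filter. Without OTC control mouse 35, 30 of the 45 genes were no longer called, and without mouse 03, 28.

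Endoplasmic reticulum chaperones lay lower in OTC than in WT under control, with a median gap of −0.66 over 22 tested genes, and at −0.44 under sh-Gls2. Of the 22 strain differences 20 were above 0, with a median of 0.22, 0 called and 0 past an unadjusted p of 0.05. The same difference for sh-Glud1, with the same controls, had a median of 0.31. WT control mouse 07 held 10860 CPM summed over the list, against a group median of 5279.7, and without it the median difference was 0.06. Targets of p53 rose in WT for 13 of 23 and in OTC for 7 (17.6% and 20.2% of all tested genes rose). The p53 list had 0 called differences and a median difference of −0.25. Targets of NRF2 rose for 20 of 32 in WT and 18 in OTC, beside the same shares. The NRF2 list had a median difference of −0.05 that turned to 0.08 on log2(TPM + 1).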
